A study of Chlamydomonas reinhardtii with 9 samples.

Results

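The genes described here are those of the unicellular green alga Chlamydomonas reinhardtii whose transcript level set a CEHC1-rescued strain apart from both its wild type and its cehc1-1 mutant. Transcripts were measured as FPKM, a read measure corrected for how long a transcript is and how deeply its library was read. For each gene the mean of log2(FPKM + 1) was taken over the 3 libraries of a strain. A gene was a member when the rescued strain differed from the wild type and from the mutant by at least 1 in the same direction, while mutant and wild type differed by at most 0.7. Of 17609 gene models, 11360 averaged 1 FPKM or more across all 9 libraries, and 92 of these (0.81%) met the rule. The rescued strain was lower in 73 members and higher in 19. Another 8 genes with such values, 2 higher and 6 lower, lie in identifier ranges around the mating-type locus on chromosome 6 and around CEHC1 on chromosome 1, and were left out by the rule.

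The series compared strain B6 (CC-4507), with wild-type CEHC1, strain B6-F (CC-4509), with the cehc1-1 mutation, and strain B6-F_resc (CC-5386), the mutant transformed with wild-type CEHC1. Each strain was grown as 3 cultures in acetate-containing TAP medium with aeration, in cycles of 14 h light and 10 h dark, and polyA RNA was taken 6 h into the light. The rescued strain is a single strain, so an effect of the added gene and any other difference between that line and the other 2 strains cannot be told apart in these data. In bulk cultures, fewer cells in a given phase and less RNA per cell cannot be told apart. The p-values of these comparisons measure the spread between cultures of a strain.

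Motile algal cells swim with a pair of flagella, which are built on a scaffold of tubulin with dynein motors and radial spokes, and which are assembled by intraflagellar transport (IFT), a system of protein trains that carries building material to the tip. The cells take flagella down before they divide and build them anew afterwards, and genes for tubulin and flagella are known to be switched on together during that rebuilding. In cultures kept on light and dark cycles, DNA replication and division also fall at set times of day. These processes are relevant here because their genes make up many of the members with a symbol.

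All values of the 3 strains were used by the rule, so the differences that follow are descriptions and carry no test of their own. In 71 of the 73 lower members every rescued library lay below all 6 libraries of the other strains, and 10.4% of all tested genes did so. In 15 of the 19 higher members every rescued library lay above the other 6, against 9.2% of tested genes. The remaining 6 members had libraries that overlapped between strains. With limma and Benjamini-Hochberg adjustment over all tested genes, 88 members passed an adjusted p under 0.05 with a log2 difference of at least 1 between rescued strain and wild type (2.31% of tested genes) and 90 did between rescued strain and mutant (9.18% of tested genes). By direction, calls took 0.634% (higher) and 1.67% (lower) of tested genes in the first comparison and 5.41% (higher) and 3.77% (lower) in the second. Nothing is read from these counts, since the rule chose genes on the same contrasts. The label of change in the rescued strain alone was met only within the limit of 0.7. Between mutant and wild type, 23 members had an adjusted p under 0.05 in limma, as did 66.2% of all tested genes, and none of the 92 also reached a log2 difference of 1, which the rule does not allow. Over all tested genes 9.4% did, 4.6% higher and 4.8% lower in the mutant.

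**Figure D1:**
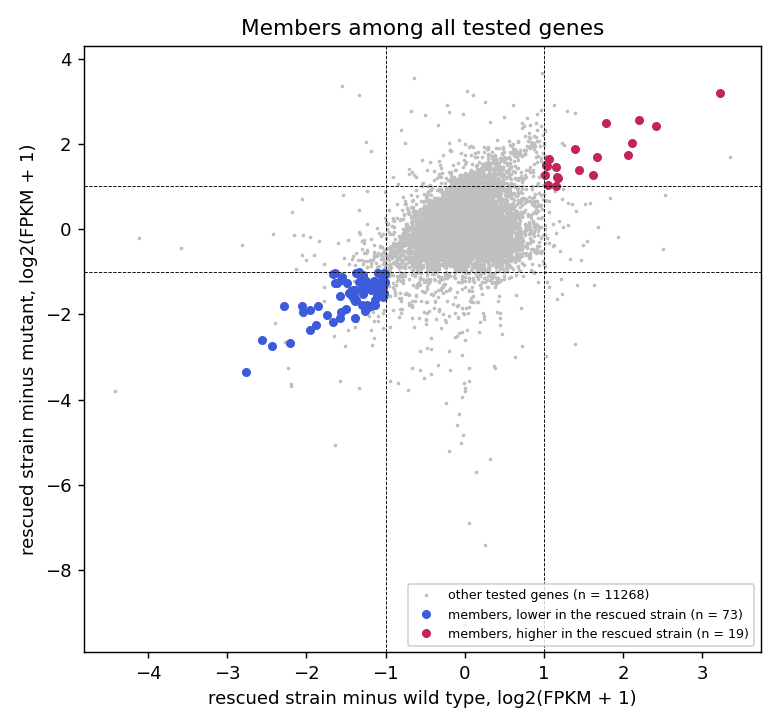
Difference of the rescued strain from the wild type (horizontal axis) and from the mutant (vertical axis), both on the log2(FPKM + 1) scale, for each tested gene, with dashed lines at 1 and -1. The 73 lower and 19 higher members lie beyond both lines, and grey points beyond both lines are genes in which mutant and wild type differed by more than 0.7 or which lie in the left-out ranges.

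The same rule with the strains exchanged found 506 genes that set the mutant apart, 190 higher and 316 lower, and 35 that set the wild type apart, 20 higher and 15 lower. The lower direction thus took 79.3% of members, against 62.5% of the genes apart in the mutant and 42.9% of those apart in the wild type. These shares were not tested against each other. The share among members also depended on scaling. After rescaling by median ratios 60 of 83 members were lower, and after quantile normalization 54 of 79. No such counts are given for the other patterns. Lower members had a median wild-type level of 7.95 FPKM and a median rescued level of 2.53 FPKM. Higher members had a median of 1.31 FPKM in the wild type and 6.12 FPKM in the rescued strain. A gene could reach the mean of 1 FPKM over all 9 libraries through the rescued strain alone. The low wild-type level of higher members is thus partly set by the choice of genes.

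**Figure D2:**
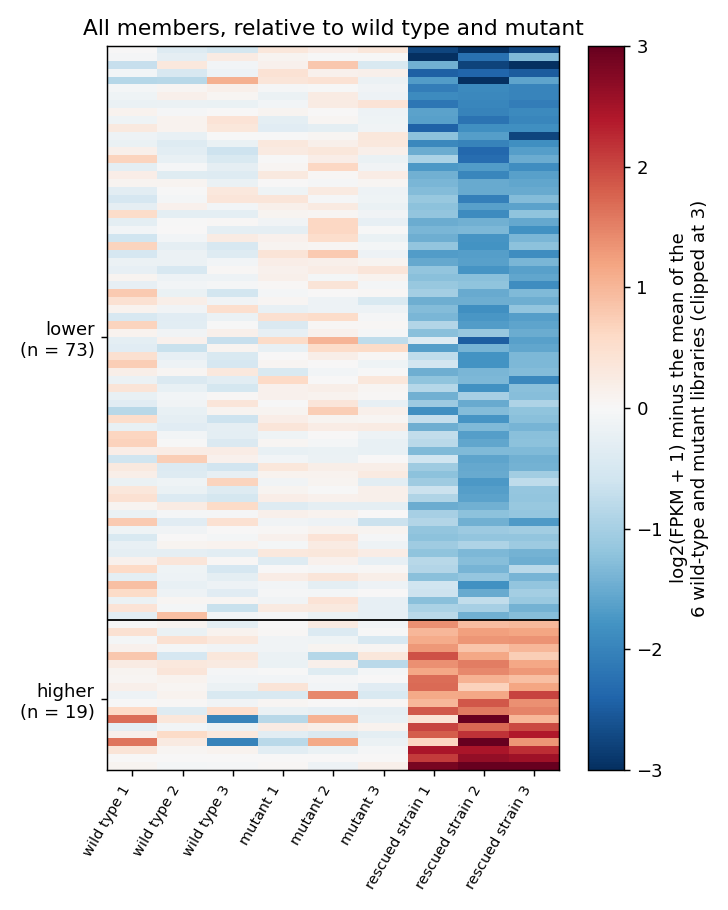
Each row is 1 of the 92 members and each column 1 library, and colour gives log2(FPKM + 1) minus the mean of the 6 wild-type and mutant libraries, clipped at 3. The 3 rescued libraries are blue in the 73 lower rows and red in most of the 19 higher rows, and a few rows, such as the neighbours Cre16.g661750_4532 and Cre16.g661850_4532, also vary within the wild type.

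The largest group of members with a symbol, formed after values were seen, was that of tubulin and flagellar genes, with 16 of the 31 lower members that carry a symbol. It held 4 tubulin genes, 3 IFT subunits, 3 dynein subunits, 1 radial spoke protein, 1 tubulin-modifying enzyme and 4 flagellar associated proteins. In all 16 the 3 rescued libraries lay below the other 6. The median difference of the rescued strain was -1.29 from the wild type and -1.38 from the mutant, while mutant and wild type differed by a median of 0.02.

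Among tubulins, the members were TUA1 and TUA2, which encode alpha-tubulin, and TUB1 and TUB2, which encode beta-tubulin. TUA1 had 378, 228 and 198 FPKM in wild-type replicates 1, 2 and 3, 275, 309 and 281 in mutant libraries, and 159, 77.6 and 107 in rescued ones. The highest rescued library, at 159, was thus below the lowest wild-type library, at 198, and wild-type replicate 1 stood above the other wild-type libraries. TUA2 had 398, 240 and 208 FPKM in wild-type libraries, 232, 257 and 228 in mutant libraries and 151, 80.4 and 106 in rescued ones. TUB1 had 219, 118 and 100 FPKM, then 136, 159 and 120, then 71.2, 27.4 and 48.7, a difference of -1.57 (SE 0.34) from either of the other strains. TUB2 was also lowest in the rescued strain, with 98.9 FPKM in wild-type libraries, 113 in mutant libraries and 43.1 in rescued ones on average. The copies in each pair are nearly identical in sequence, and the sources used here do not say how shared reads were assigned, so the split within a pair is uncertain. The other tested tubulin genes were no members. TUG1, the gamma-tubulin of microtubule-organising centres, had means of 5.12, 7.82 and 4.05 FPKM in wild type, mutant and rescued strain with overlapping libraries, and TUH1 had 4.28, 2.73 and 4.72. TTLL9, an enzyme that adds glutamates to flagellar tubulin, had 3.14 ± 1.42 FPKM in wild-type libraries, 4.53 ± 0.345 in mutant libraries and 0.87 ± 0.326 in rescued ones (SD, n = 3).

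**Figure D3:**
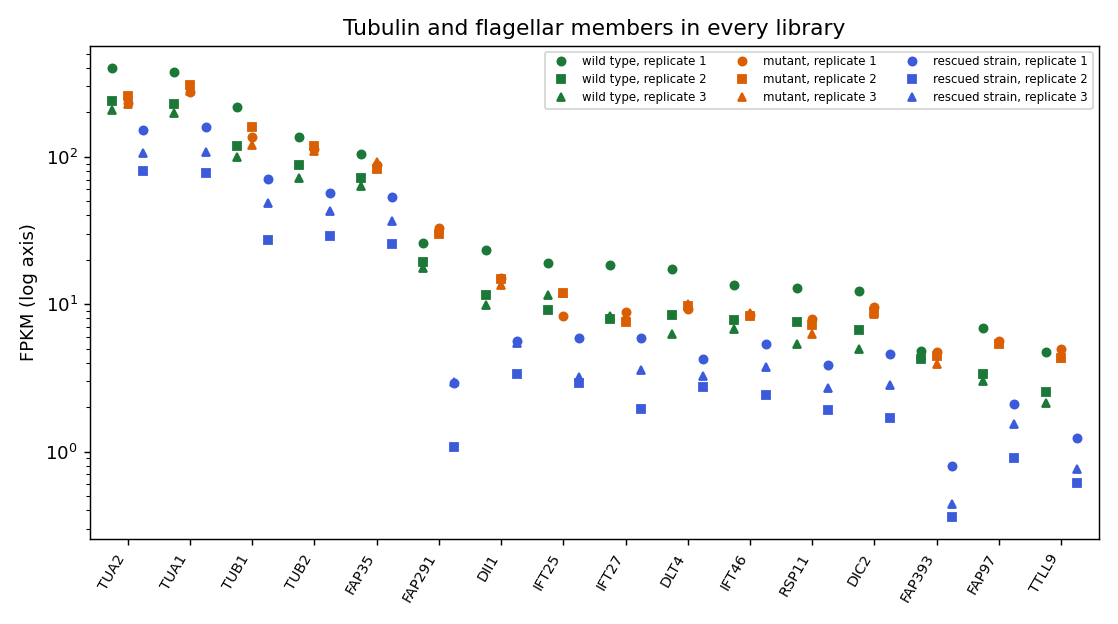
FPKM on a log axis for the 16 tubulin and flagellar members, ordered by wild-type mean, with 1 point per library (colour for strain, shape for replicate number). The rescued libraries lie below the other 6 in every gene, wild-type replicate 1 is the highest of its strain in all 16, and rescued replicate 2 the lowest of its strain in all 16.

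The IFT members IFT25, IFT27 and IFT46 belong to the same complex of the trains, IFT-B, in which IFT27 is a small G protein that binds IFT25. IFT25 had 19.1, 9.12 and 11.5 FPKM in wild-type libraries, 8.38, 12 and 11.9 in mutant libraries and 5.89, 2.92 and 3.23 in rescued ones. IFT27 had 18.4, 7.93 and 8.33 FPKM in wild-type libraries, 8.82, 7.53 and 8.29 in mutant libraries and 5.86, 1.95 and 3.6 in rescued ones. Their wild-type level was pulled up by replicate 1, and the other wild-type libraries stood nearer to the rescued ones. The whole family was then read beside the members. Of 22 IFT genes tested, all 22 had a lower mean in the rescued strain than in both other strains, which was so for 25.4% of all tested genes. In 12 all rescued libraries were below the other 6 (10.4% of all tested genes). Wild-type replicate 1 was the highest of its strain in every IFT gene, so these genes are not separate observations. In IFT144, with 5.64, 3.67 and 2.75 FPKM in wild-type libraries and 3.94, 2.64 and 3.21 in rescued ones, the lower mean rested on that library. The 19 IFT genes outside the rule had median differences of -0.71 from the wild type and -0.81 from the mutant. IFT52, for example, had means of 12, 12.7 and 5.51 FPKM and missed the rule with differences of -0.96 and -1.11.

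DIC2, an intermediate chain of the outer dynein arm, had 7.95 ± 3.86 FPKM in wild-type libraries, 9.01 ± 0.539 in mutant libraries and 3.04 ± 1.46 in rescued ones. DII1, an inner dynein arm subunit, and DLT4, a dynein light chain, had rescued means of 4.82 and 3.42 FPKM against wild-type means of 15 and 10.7. Of 36 dynein arm genes tested, 18 had a lower mean in the rescued strain than in both other strains, with medians over the 36 of -0.37 from the wild type and -0.83 from the mutant. The dynein heavy chains, the motor subunits themselves, were no members. DHC14, for example, had 2.46, 9.62 and 3.68 FPKM in wild type, mutant and rescued strain. RSP11, a radial spoke protein, had 8.55 ± 3.82, 7.16 ± 0.805 and 2.82 ± 0.987 FPKM in the order wild type, mutant and rescued strain. All 16 radial spoke genes tested, RSP11 among them, had a lower mean in the rescued strain than in both other strains (25.4% of all tested genes). In 12 all rescued libraries were below the other 6 (10.4% of all tested genes). RSP17 and RSP2 were lower than the wild type by little. RSP17 had 1.87, 1.01 and 0.81 FPKM in wild-type libraries and 1.41, 0.644 and 1.11 in rescued ones. In both genes wild-type replicates 2 and 3 lay within the range of the rescued libraries. The 15 that were no members had medians of -0.84 and -0.72.

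FAP291, FAP393, FAP35 and FAP97 are named for flagellar associated proteins, found in isolated flagella. FAP291 had the largest difference of all lower members, with 26, 19.4 and 17.5 FPKM in wild-type libraries, 32.9, 29.8 and 32.5 in mutant libraries and 2.93, 1.08 and 2.98 in rescued ones. FAP393 had 4.79, 4.27 and 4.5 FPKM in wild-type libraries, 4.71, 4.43 and 3.9 in mutant libraries and 0.794, 0.362 and 0.444 in rescued ones. In both genes the rescued libraries lay below all others by more than the spread within any strain. FAP35 was far more abundant, with means of 80.1, 87.8 and 38.4 FPKM, and closer to the threshold.

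A list of flagellar genes matched by symbol, chosen with earlier results of these data known, had 352 tested genes, of which 9 were members (2.56%, against 0.81% of all tested genes). The other 343 had median differences of -0.26 from the wild type and -0.52 from the mutant, where all tested genes without members had -0.03 and 0.05. In 63.6% of the 343 the rescued mean was the lowest of the 3 strains, and in 26.8% all rescued libraries were below the other 6, against 24.9% and 9.9% of all tested genes without members. The list was chosen on the contrasts it is described by, so these shares are descriptions.

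The rule works on strain means and not on the order of replicates within a strain, but the same values make up those means. A high wild-type replicate 1 or a low rescued replicate 2 widens the difference of a lower member. The order is thus not independent of the choice of genes. Within strains the 16 tubulin and flagellar members moved together. Wild-type replicate 1 was the highest of its strain in 16 of 16, rescued replicate 1 in 15 of 16 and rescued replicate 2 the lowest in 16 of 16. All of these held at once in 15 members, FAP291 being the exception, and in 6.77% of all tested genes. The pattern reached beyond the members, to 44.6% of the flagellar list without them. It was found in 4 of the 57 other lower members. The median deviation from the strain mean was 0.56 in wild-type replicate 1, -0.45 in rescued replicate 2, and between -0.04 and 0.02 in mutant libraries libraries, on the log2(FPKM + 1) scale.

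**Figure D4:**
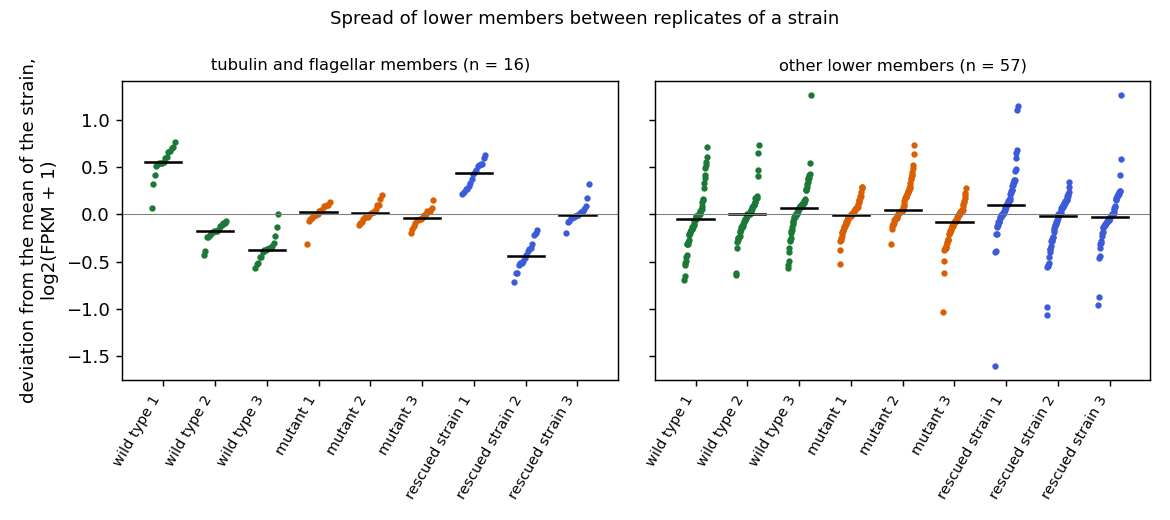
Deviation of each lower member from the mean of its strain, on the log2(FPKM + 1) scale, in each library, for the 16 tubulin and flagellar members (left) and the 57 others (right), with black bars for medians. On the left, wild-type replicate 1 and rescued replicate 1 are raised and wild-type replicate 3 and rescued replicate 2 lowered, with medians of 0.56, 0.44, -0.37 and -0.45, while medians of the other lower members lie between -0.08 and 0.10.

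These libraries bear on how many of the 16 meet the rule. Without wild-type replicate 1, 6 met it, with a median of -0.96 against wild type. Without rescued replicate 2, 7 met it, with medians of -1.08 and -1.15. Without both, a choice made after seeing the data, FAP393 and IFT25 still met it, and the medians of the 16 were -0.77 from the wild type and -1.15 from the mutant. Quantile normalization left 11 of the 16 within the rule and rescaling by median ratios 15.

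A smaller group of members with a symbol, formed after values were seen, was MCM7 and RFC5, both of DNA replication. MCM7, a subunit of the hexameric MCM helicase that opens DNA for replication, had 2.08, 2.88 and 2.36 FPKM in wild-type libraries, 4.71, 6.57 and 2.95 in mutant libraries and 0.365, 0.384 and 0.189 in rescued ones. It met the rule at its edge, since mutant and wild type differed by 0.70. The other subunits MCM2 to MCM6 were also lowest in the rescued strain, with all rescued libraries below the other 6. MCM2 had 0, 0.0517 and 0.0143 FPKM there against 1.19, 1.25 and 1.11 in the wild type. MCM6 had 0.121, 0.197 and 0.0407 FPKM there against 1.88, 2.46 and 1.95. MCM2, MCM3, MCM4 and MCM6 fell outside the rule since mutant and wild type differed by 1.06, 1.48, 0.95 and 0.91. MCM3 also missed it against the wild type, with a rescued difference of only -0.22. MCM5 fell outside since the rescued strain differed from the wild type by -0.82. In each of the 6 genes every mutant library was also above every wild-type library.

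RFC5, a subunit of the clamp loader that places the sliding clamp on DNA, had 6.6, 8.41 and 8.51 FPKM in wild-type libraries, 7.44, 9.56 and 6.98 in mutant libraries and 3.2, 3.64 and 3.13 in rescued ones. Here mutant and wild type overlapped, with a difference of 0.02 (SE 0.12). RFC2, RFC3 and RFC4 were also lowest in the rescued strain, with smaller differences from the wild type, -0.78, -0.66 and -0.85, and RFC1 had -0.20. Of 11 other replication genes tested, none was a member, where 0.81% of all tested genes were. PCN1, the sliding clamp, had means of 24.4, 29.1 and 15.3 FPKM, and RIR1, a ribonucleotide reductase subunit, had 6.61, 13.3 and 2.28, with a mutant difference of 0.82 from the wild type. MCM7 and RFC5 did not follow the replicate order of the flagellar members, since in neither was wild-type replicate 1 the highest of its strain. It was the highest in some related genes, such as MCM3, with 0.507, 0.432 and 0.395 FPKM in wild-type libraries.

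**Figure D5:**
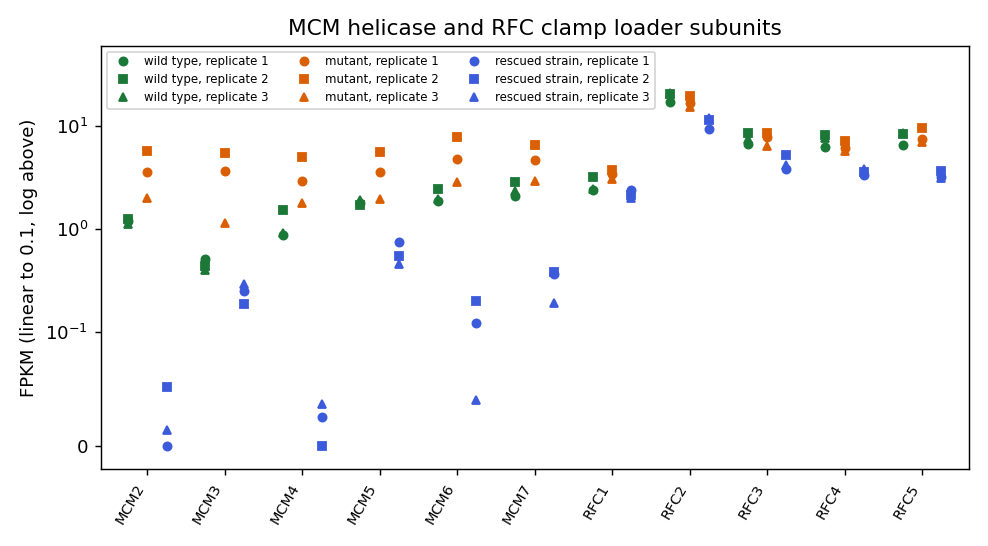
FPKM of the MCM helicase and RFC clamp loader subunits in each library (colour for strain, shape for replicate number), on an axis that is linear up to 0.1 and logarithmic above. All rescued libraries lie below the other 6 in MCM2 to MCM7 and in RFC2 to RFC5, and the mutant libraries lie above the wild type in the MCM genes, but overlap with it in RFC2 to RFC5.

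Single named genes followed. ROC15, a component of the algal circadian clock, had 4.73, 3.36 and 4.47 FPKM in wild-type libraries, 7.23, 5.58 and 5.72 in mutant libraries and 0.111, 0.174 and 0.0688 in rescued ones. It was close to absent from all 3 rescued libraries, with differences of -2.21 and -2.68 (SE 0.12). None of the other 7 tested ROC genes was a member, where 0.81% of all tested genes were. ROC75, another clock gene, had means of 4.09, 8.06 and 6.76 FPKM. NAP1, a divergent actin-like protein in this alga, had 4.84, 3.68 and 6.81 FPKM in wild-type libraries, 5.39, 9.88 and 10.1 in mutant libraries and 1.35, 1.81 and 1.52 in rescued ones. PRMT1, an arginine methyltransferase, had 22 ± 4.49 FPKM in wild-type libraries, 18 ± 2.3 in mutant libraries and 4.51 ± 1.12 in rescued ones. Its relative PRMT10 was lower as well, at 46.2, 36.4 and 19.6 FPKM, but missed the rule with -0.86 from the mutant.

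Among the remaining lower members with a symbol, LCI34, named for induction at low CO2, had 108, 95.4 and 109 FPKM in wild-type libraries, 155, 139 and 155 in mutant libraries and 31.8, 30.5 and 34.1 in rescued ones. Its libraries were tightly grouped in each strain, and it was the only member among 17 tested LCI genes. TEF13, from a thylakoid-enriched fraction, varied more, with 30.7, 62.7 and 47 FPKM in wild-type libraries and 17.9, 6.48 and 3.37 in rescued ones. SIR1, a sulfite reductase, had 11.8 ± 2.27, 16.7 ± 1.44 and 4.24 ± 1.16 FPKM. ELIP9, of the early light-induced proteins, had 4.99, 3.78 and 1.37 FPKM on average, while ELIP8 had 146, 54.7 and 279 and ELIP6 138, 43.1 and 186. TRXH2, a thioredoxin, had 29, 32.7 and 12.6 FPKM. CYN20A, a cyclophilin that helps proteins fold, had means of 227, 251 and 110 FPKM, with a difference of -1.03 (SE 0.07) from the wild type. CGLD37, conserved in the green lineage and diatoms, was the most abundant member, with 942, 1054 and 1317 FPKM in wild-type libraries, 681, 738 and 740 in mutant libraries and 316, 327 and 402 in rescued ones. HSP70H, of the heat shock protein family, had means of 3.79, 3.59 and 1.28 FPKM, and its highest wild-type library was replicate 1 with 5.97 FPKM and its lowest rescued library replicate 2 with 0.74. SCO2 had means of 11.4, 13 and 5.04 FPKM and CPL2 of 3.07, 4.73 and 1.01.

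Of the 19 higher members only EFG12 and BAF3 had a symbol. EFG12 had 142, 90.2 and 112 FPKM in wild-type libraries, 107, 77.9 and 103 in mutant libraries and 209, 245 and 238 in rescued ones. BAF3 had 5.65, 7.09 and 5.1 FPKM, then 5.25, 3.89 and 4.96, then 12.9, 16.1 and 14.5. In both, every rescued library was above the other 6, with differences from the wild type of 1.02 and 1.16.

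Several members without a symbol were close to present or absent by strain. Cre06.g800658_4532 had 0.353, 0.225 and 0.245 FPKM in wild-type libraries, 0.318, 0.162 and 0.429 in mutant libraries and 8.21, 13.4 and 11.8 in rescued ones, the largest of all members by the smaller of the 2 rescued differences. Cre06.g800595_4532 was listed at 0 in all 6 wild-type and mutant libraries and at 3.28, 5.2 and 4.79 FPKM in the rescued strain. Cre12.g492900_4532 had 1.81, 1.26 and 1.32 FPKM in wild-type libraries, 0.749, 0.886 and 1.12 in mutant libraries and 10.9, 10.9 and 9.06 in rescued ones. In the opposite direction, Cre06.g800587_4532 and Cre06.g802347_4532 were listed at 0 in all 3 rescued libraries. The first had 2.77, 2.12 and 1.55 FPKM in wild-type libraries and 1.86, 1.48 and 1 in mutant libraries. The second had 1.89, 1.93 and 1.96 FPKM in wild-type libraries and 1.15, 1.21 and 1.16 in mutant libraries. Cre17.g701350_4532 had 0.0358, 0.0724 and 0 FPKM in the rescued strain against 1.38 to 3.45 in the other libraries, and Cre01.g030150_4532 had 0.289, 0.249 and 0.194 against 3.16 to 4.64. Cre06.g260950_4532 was lower at a higher level, with 19.4, 21.3 and 22.9 FPKM in wild-type libraries, 19.9, 20.1 and 19 in mutant libraries and 4.09, 4.69 and 4.4 in rescued ones.

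Gene order was read from RefSeq's assembly Chlamydomonas_reinhardtii_v5.5, in which 81 of the 92 members were found by identifier. Consecutive members on a chromosome were a median of 132 genes apart, and only 2 pairs stood within 3 genes of each other. Chromosome 6 carried 16 members by identifier, 1.69% of its tested genes outside the left-out range, and chromosome 11 carried 7, or 1.94%. Chromosomes 13 and 15 had none among 535 and 130 tested genes. The 5 chromosome 6 members with identifiers from g800000 upwards, which include the 4 listed above as near 0 in some strains, are not in the v5.5 table. The left-out ranges are ranges of identifier number, so whether these 5 lie near the mating-type locus was not tested. The nearest member to that range in v5.5 gene order was FAP393, 94 genes beyond its edge. Identifiers of this kind made up 12% of members and 5.72% of tested genes.

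DLT4 and ELIP9, 3 genes apart on chromosome 9, were both lower in the rescued strain, with wild-type replicate 1 highest in DLT4 and wild-type replicate 2 highest in ELIP9. Cre16.g661750_4532 and Cre16.g661850_4532, 2 genes apart on chromosome 16, moved as a pair across all libraries. The first had 23.3, 8.68 and 0.911 FPKM in wild-type libraries, 3.27, 14.6 and 5.48 in mutant libraries and 9.24, 93.2 and 14.1 in rescued ones. The second had 14.7, 5.25 and 0.29 FPKM, then 1.95, 10.5 and 3.59, then 7.08, 97.9 and 12. Their strains overlapped, the mean of the rescued strain rested on replicate 2, and neither passed limma's threshold in any comparison. The other members with overlapping libraries were Cre09.g395213_4532, Cre16.g801969_4532, Cre03.g146547_4532 and Cre17.g735876_4532. Members as a whole varied more between cultures than other genes, with a median SD within strains of 0.248 against 0.108 for all tested genes on the log2(FPKM + 1) scale. The rule sets no limit on spread, so genes that vary more can pass it more easily. This gap can thus be partly set by the choice of genes.

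How far the choice holds in libraries it did not use was described by choosing genes from 2 replicates of each strain and reading the replicate left out. With replicate 1 left out of the choice, 114 genes were chosen, and in replicate 1 the rescued library lay on the same side of both other strains in 108 of them. With replicate 2 left out this was so for 72 of 75, and with replicate 3 for 96 of 98. Of all tested genes, 51.3%, 62.3% and 49.7% had the rescued library beyond both other strains, on either side, in replicates 1, 2 and 3. Differences of at least 1 from both strains were found again in 42, 56 and 48 of these genes, or 36.8%, 74.7% and 49%, where 0.981%, 2.33% and 1.17% of all tested genes had such differences in either direction in the replicate read. With mutant and wild type also within 0.7 there, as the rule asks, 34 of 114, 46 of 75 and 44 of 98 chosen genes were left. The median of the smaller difference went from 1.23 in the choice to 0.89 in replicate 1, from 1.27 to 1.43 in replicate 2 and from 1.23 to 0.99 in replicate 3.

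The members just inside it on the lower side were Cre01.g013500_4532, Cre11.g467531_4532 and Cre02.g101650_4532, whose smaller difference was -1.01 each. The genes just outside, Cre06.g269650_4532, CAT2 and Cre12.g537950_4532, had -1, -0.99 and -0.99. On the higher side Cre01.g800076_4532, EFG12 and Cre17.g698266_4532 lay inside with 1.02, 1.02 and 1.03, and Cre16.g686350_4532, Cre10.g452450_4532 and Cre07.g355050_4532 outside with 0.99, 0.97 and 0.97.

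Members were 0.81% of all tested genes, and short lists would hold few or none at that share. Nothing is thus read from the list counts that follow. Lists for copper response, hydrogen production and fermentation, iron, nitrogen, mating and gametes, and the cell wall held no member among 11, 19, 8, 16, 14 and 40 tested genes. The carbon concentration list had 1 of 35 (LCI34), light harvesting and photoprotection 1 of 30 (ELIP9) and chaperones 1 of 32 (HSP70H). The lists of histones, cyclases, and proteases with ubiquitin held none among 5, 1 and 51. CEHC1 itself (Cre01.g005900_4532) lies in a left-out range, and its transcript was at 8.64 ± 1.41, 17.2 ± 0.967 and 26.5 ± 1.31 FPKM in wild type, mutant and rescued strain. The sum of FPKM over all genes was 970073 to 1108532 in wild-type libraries, 592929 to 645234 in mutant libraries and 888153 to 1002223 in rescued ones. The mutant sums were thus the lowest. A sum leans on the most abundant genes, and whether the scale of the mutant differed was not tested. Over all tested genes the median difference was -0.13 between mutant and wild type, -0.03 between rescued strain and wild type and 0.05 between rescued strain and mutant.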

How the data were processed

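Samples were grouped by strain from their titles, 3 cultures each. The authors deposited FPKM per library and 1 FPKM value per strain. STAR 2.7.10b and Cuffdiff 2.0.2 are named, without parameters, in the submitters' processing notes, and reads were paired-end of 125 bp per the labels' protocols. The sources used here give neither the genome build nor the number of reads, so no counting interval is given. Identifiers carry annotation version 6.1 and were matched to the RefSeq v5.5 gene table for gene order only, so no coordinates are given.

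The rule, the lists and the genes named were chosen with earlier results of these data known. Named were CEHC1, the 12 largest rises and 12 largest falls by the smaller rescued difference, every member with a symbol, members in runs at most 3 genes apart and the 3 nearest genes on each side of the threshold, of which those the text turns on are given in full. Related genes of a family and the 16 tubulin and flagellar members were grouped after values were seen. A list of mobile elements by product text was not run, since no product text was used here.

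Group means of log2(FPKM + 1) over the 9 libraries, and their SE, came from limma 3.58.1 (R 4.3.3) with a mean-dependent prior variance. The calculation was tried on simulated data with 200 genes shifted by 2 in the rescued strain among 11360. The rule found 99.5% of the shifted genes, and 3 unchanged ones. Shifted genes were drawn from those with higher levels, and a shift of 2 lies well beyond the threshold of 1. The high share was thus largely set in advance and says nothing about members near the threshold. Unchanged genes were given the same mean in all strains and noise that was independent between genes. In the data 66.2% of tested genes had an adjusted p under 0.05 in limma between mutant and wild type, and flagellar members moved together. The 3 unchanged genes found thus give no rate of false members for these data. Alternatives covered pseudocounts, minimum FPKM, scaling, moderation, replicate block, thresholds and leaving out libraries. Figures used matplotlib 3.10.9.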

Additional observations from a re-analysis of the deposited data

How the results depend on the processing

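The number of members, 92 as reported with 19 higher and 73 lower, depended most on the pseudocount. A pseudocount of 0.1 gave 165 (32 higher, 133 lower) and one of 5 gave 23 (5 higher, 18 lower). A minimum mean of 5 FPKM gave 50 (7 and 43), rescued differences of at least 1.5 gave 23 (7 and 16), and a mutant difference within 0.35 gave 59 (12 and 47). These last 3 settings are narrower by construction. Rescaling by median ratios gave 83 (23 higher, 60 lower), of which 75 were among the 92. Quantile normalization gave 79 (25 higher, 54 lower) with 62 shared, and the authors' strain values 89 with 86 shared. Leaving out 1 library gave 74 to 117 members, 15 to 27 higher and 59 to 99 lower, and leaving out 1 replicate number of every strain 75 to 114, 19 to 23 higher and 56 to 91 lower. Without wild-type replicate 1 and rescued replicate 2 together, an alternative chosen after seeing the data, there were 76, of which 59 were among the 92. A larger pseudocount shrinks log2 differences by construction, most in genes with few FPKM. The cause of the remaining shifts was not tested.

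In the fit over all genes with limma, 262 were called between rescued strain and wild type, 1043 between rescued strain and mutant and 1068 between mutant and wild type. A pseudocount of 0.1 gave 606 and 1758 for the first and last, one of 5 gave 75, 550 and 433, and a minimum of 5 FPKM 154 and 631 for the first and last. Leaving out 1 library gave 263 to 295, 944 to 1191 and 986 to 1211. Scaling moved directions: rescued against wild type had 72 higher and 190 lower as deposited, 91 and 159 with median ratios and 77 and 153 after quantile normalization. Rescued against mutant had 615 and 428, then 514 and 478, then 456 and 476, and mutant against wild type 523 and 545, then 668 and 336, then 486 and 238. Rescaling by median ratios moved the median of mutant minus wild type over all genes from -0.13 to -0.01. With the replicate block the counts were 262, 1044 and 1068, and no count moved by more than 1. Deviations of libraries with the same number in different strains correlated at -0.13 to 0.16, so the numbers were not taken as pairs. Over 52 named members and 810 values under alternatives, no difference from the wild type changed sign, and 77 moved by at least the SD within strains. The members were chosen for a difference of at least 1 in these same libraries, so a kept sign carries no support. Differences from the mutant were not followed in this count.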
